A study of Mus musculus with 6 samples.

Results

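The unfolded protein response and the chaperones of the endoplasmic reticulum (ER) were examined as a set of 38 genes chosen by name, among 37991 genes counted in cecal tissue of HBUS mice. These genes were the folding factors, degradation factors, stress sensors, transcription factors and translocon subunits listed below, and all 38 had a row in each of the 6 count tables. RNA came from 3 HBUS mice, whose cecal tissue was collected after 60 weeks. From each mouse (1119, 1192 and 1199) there was 1 serrated polyp and 1 piece of the surrounding normal distal cecum, so the 6 libraries formed 3 pairs within animals. HBUS is a double transgenic strain in which gut epithelium makes US28, a chemokine receptor of viral origin, together with HB-EGF, a ligand of the EGF receptor, and serrated polyps form in its cecum. Both tissues of every pair therefore carried the transgenes, and no tissue without them entered the comparison. The promoter of the transgenes is not given in the labels. The question of the pairing is which transcripts differ within an animal between its polyp and its surrounding cecum.

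Secreted and membrane proteins enter the ER through the Sec61 translocon and fold there with the help of chaperones, lectins and disulfide isomerases. When unfolded proteins build up, the chaperone BiP (Hspa5) is drawn away from the sensors ATF6, IRE1 (Ern1 and Ern2) and PERK (Eif2ak3). ATF6 is then cut to release a transcription factor, IRE1 splices Xbp1 mRNA so that it encodes an active factor, and PERK phosphorylates eIF2-alpha, which favours translation of ATF4. ATF6 and XBP1 raise transcription of chaperones and of the degradation machinery, and ATF4 raises Ddit3 and Trib3. In the gut the response is best known from goblet cells and plasma cells, which secrete mucins and antibodies, and IRE1-beta (Ern2) is a form found in mucus-producing epithelium. Counts per gene show neither the splicing of Xbp1 nor the cutting of ATF6 nor phosphorylation, so the values below are transcript levels of the sensors and of the genes they act on.

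Total counts per library ran from 6632645 to 13350119. The mitochondrial rRNA genes took 46.3% to 75.3% of them and left 1852065 to 5096066 counts for other genes. The members held 8130 to 23436 counts per library. The surrounding tissue of mouse 1199 stood apart with the smallest number of counts outside mitochondrial rRNA and a normalization factor of 0.593. The polyp of mouse 1192 stood apart with the fewest genes detected, 12867 against 15045 to 17301 in the other libraries, and a factor of 1.43. The 12 general epithelial markers summed to 3299 to 5435 CPM in surrounding tissue and 5506 to 7245 CPM in polyps. Both tissues contain epithelium, so these sums cannot check which sample of a pair was the polyp. CPM are counts per 1000000 after dividing by a library size that was first adjusted for composition. A count of 0 in a library allows up to 3 counts, which is 0.214 to 0.676 CPM and covers counting error only. Values are listed in the order of mice 1119, 1192 and 1199 throughout. A positive log2 fold change means a higher level in the polyp, and it is given ± standard error over 3 pairs.

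Many of these genes are known targets of ATF6 and XBP1 through a DNA element, and the promoters were searched for its letters to show how far the set shares it. The ER stress response element (ERSE) was searched as CCAAT and CCACG with any 9 bases between them, and its variant ERSE-II as ATTGG and CCACG with any 1 base between them, on both strands. RefSeq promoters (GRCm38.p6, 250 bases before to 50 bases after the start) were held for 32 of the 38 members. Entries were missing for Hyou1, Manf, Derl1, Atf6, Ern2 and Sec61a1. ERSE letters stood in 9 of the 32 member promoters (28.1%) and in 39 of all 32851 promoters of that table (0.119%). ERSE-II letters stood in 2 member promoters and in 12 promoters in all. The core of the unfolded protein response element, TGACGTGG, and the ATF4 element written as TGATGNAAT were in 0 and 0 member promoters, and in 0.676% and 0.965% of all promoters. The 250 bases before the Hspa5 start (chr2:34771840-34772089, plus strand) are shown first, since BiP is the gene by which the response is usually read. Shorter windows follow for the other members whose element lay before the start and whose transcripts were tested. All run 5′ to 3′ along the gene, and capitals mark the element.
Hspa5: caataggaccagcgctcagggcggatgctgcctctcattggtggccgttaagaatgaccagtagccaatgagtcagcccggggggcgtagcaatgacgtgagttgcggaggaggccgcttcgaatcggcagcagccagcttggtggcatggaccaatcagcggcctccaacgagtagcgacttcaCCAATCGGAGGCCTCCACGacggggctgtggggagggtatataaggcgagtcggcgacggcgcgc
Hsp90b1 (chr10:86705628-86705666, minus strand): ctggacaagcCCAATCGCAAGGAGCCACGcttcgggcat
Calr (chr8:84847065-84847103, minus strand): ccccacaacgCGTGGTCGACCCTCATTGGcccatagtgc
Canx (chr11:50325790-50325828, minus strand): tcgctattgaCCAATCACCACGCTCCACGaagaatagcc
Pdia6 (chr12:17266481-17266519, plus strand): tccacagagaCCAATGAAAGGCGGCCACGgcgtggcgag
Dnajc3 (chr14:118937817-118937855, plus strand): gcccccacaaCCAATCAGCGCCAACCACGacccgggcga
Creld2 (chr15:88819510-88819548, plus strand): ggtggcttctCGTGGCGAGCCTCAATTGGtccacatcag
Syvn1 (chr19:6046522-6046560, plus strand): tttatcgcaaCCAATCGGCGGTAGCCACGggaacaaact
Herpud1 (chr8:94386367-94386397, plus strand): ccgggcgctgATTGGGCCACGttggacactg

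The element of Hspa5 began 65 bases before the start, and those of the genes in the list above began 44 (Syvn1) to 212 (Hsp90b1) bases before it. In Creld2 and Calr the letters lie on the opposite strand. Hsp90b1 had a second copy on the opposite strand. Dnajb11 carried ERSE-II just after its start, and Derl3, whose transcript was hardly counted, carried ERSE. Only exact letters were searched, so copies that differ from them were not marked or counted. A match of letters is a description and shows no binding.

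No gene of the set passed the test between polyp and surrounding tissue. Of the 38 members, 36 passed the filter on low counts and were tested, and 0 rose and 0 fell (two-sided quasi-likelihood test of edgeR, blocked by mouse, Benjamini-Hochberg adjusted p under 0.05 over 10960 genes). In the same test 2.76% of all genes tested changed (1.72% higher and 1.04% lower), so a count of 0 in 36 lies near the background. At an unadjusted p under 0.05 there was 1 member, Edem3, beside 14.6% of all genes. DESeq2 called 0 members as well (1 at an unadjusted p under 0.05), and so did limma-voom (3). Adjusted p-values of the members ran from 0.331 to 0.999. The median log2 fold change was 0.074 over the members and -0.023 over all genes tested, and 22 members had a positive and 14 a negative value.

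A p that misses the threshold does not show that levels are equal, so the 95% interval of each difference is given. For 30 of 36 members the interval lay between log2 -1 and 1, which is 2-fold either way, beside 40.7% of all genes tested. For 12 it lay within 1.5-fold either way, beside 12.5% of all genes. The members are more abundant than most genes tested (median of their mean levels 30.5 CPM against 9.34), and abundance narrows an interval. A 2-fold rise in polyps lay outside the interval of 34 members, and inside it for Sdf2l1 and Creld2. The members whose interval reached past a 2-fold fall were Sdf2l1, Dnajb11, Syvn1, Atf4 and Ddit3.

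**Figure D1:**
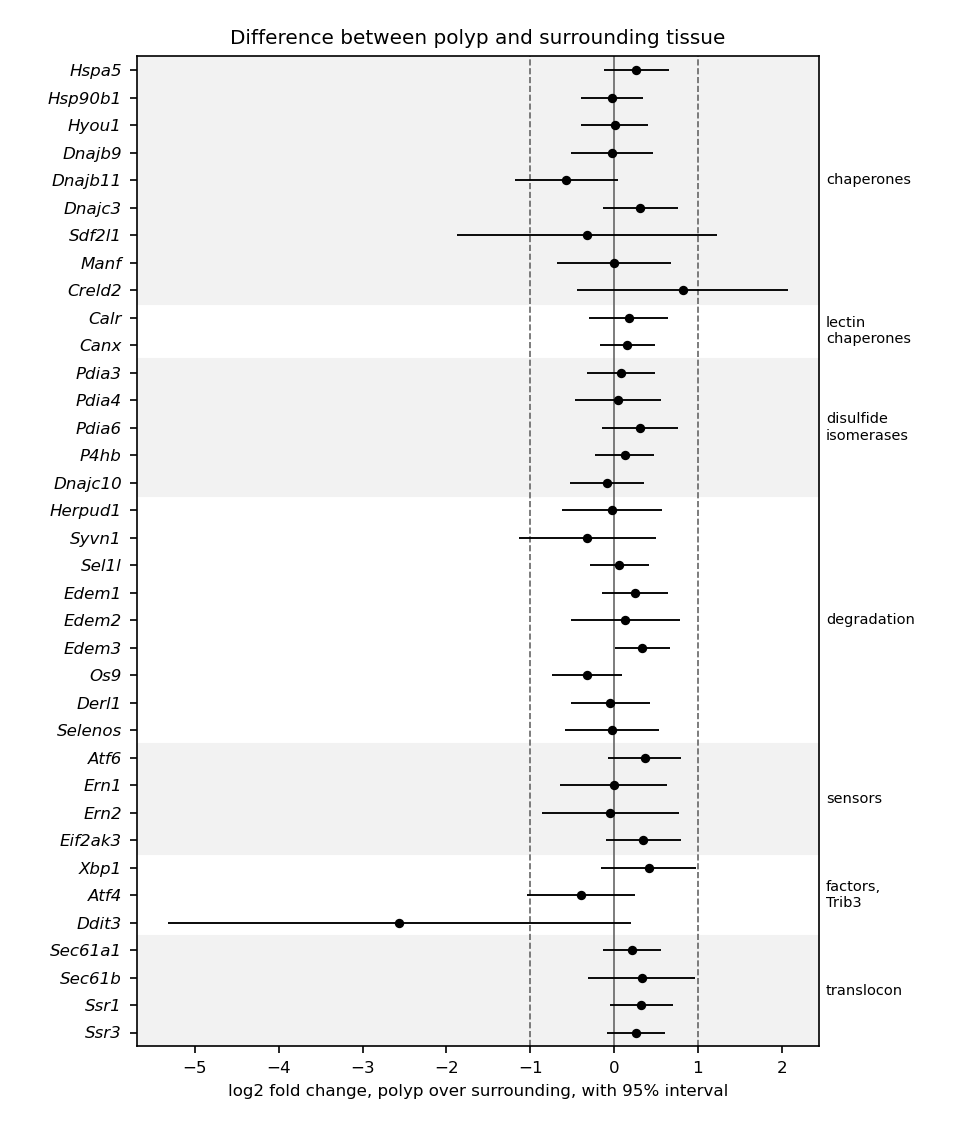
Log2 fold change of polyp over surrounding tissue for the 36 members tested, grouped by role, with points for the fitted value and bars for its 95% interval (3 pairs); dashed lines mark 2-fold either way. Every interval but that of Edem3 crosses 0, and 30 lie between the dashed lines.

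Most of the folding machinery was well counted in both tissues. Per kilobase of exon, the scale on which genes can be compared, P4hb was the highest member at 53.8 ± 4.02 CPM per kb in surrounding tissue (mean ± SD, n = 3 mice) and 59.3 ± 10.9 in polyps. P4hb encodes the prototype protein disulfide isomerase. Pdia3, Canx and Calr, the isomerase and lectins of glycoprotein folding, followed at 43.0 ± 7.39, 38.4 ± 3.67 and 34.4 ± 8.16 CPM per kb in surrounding tissue, and their order is within those spreads. Ssr3, Hsp90b1 and Hspa5 came next at 28.0 ± 7.34, 24.6 ± 4.18 and 21.9 ± 4.66 CPM per kb. At the lower end were Ern2 (2.60 ± 1.05), Syvn1 (2.46 ± 0.524) and Ddit3 (1.58 ± 0.403). Derl3 and Trib3, the members that did not pass the filter, had at most 3 counts in any library. Exon lengths came from GENCODE M21, which may not be the annotation the counts were made on.

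**Figure D2:**
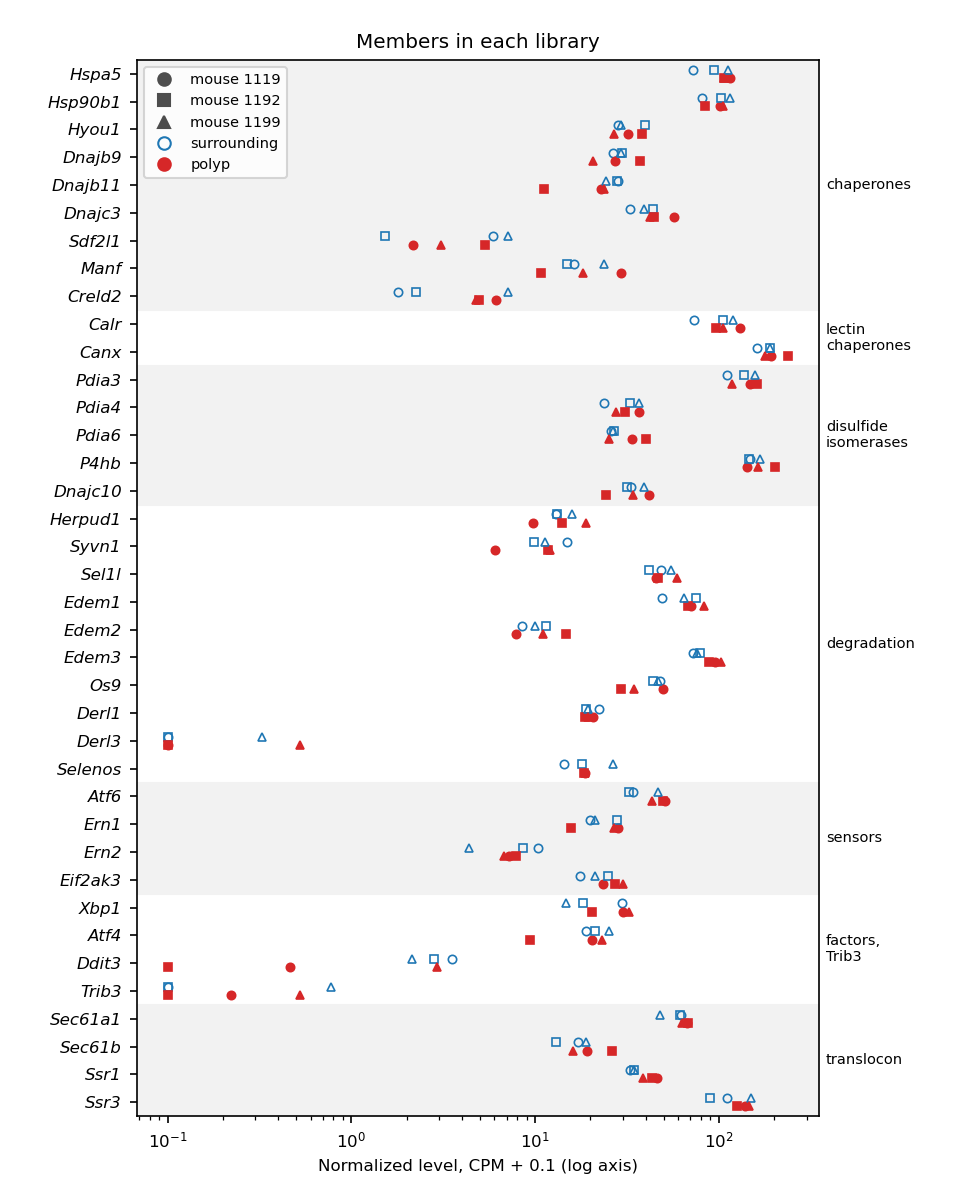
Normalized level of each of the 38 members in each of the 6 libraries (CPM + 0.1, log axis), with open blue symbols for surrounding tissue, filled red symbols for polyps and a symbol shape per mouse. The red and blue symbols of most genes interleave, and Derl3 and Trib3 sit at or near 0.

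Among the chaperones of the lumen, 0 of 9 tested members passed the test. Hspa5, the Hsp70-type chaperone BiP, was at 72.2, 93.7 and 112 CPM in surrounding tissue and at 115, 107 and 106 CPM in the polyps. The surrounding tissue of mouse 1119 was the lowest, and the groups overlapped (log2 fold change 0.27 ± 0.17, 95% interval -0.12 to 0.66, adjusted p = 0.557). Its interval in fold terms ran from 0.918 to 1.58. Hsp90b1, the Hsp90-type chaperone GRP94, stood at 81.0, 102 and 114 CPM in surrounding tissue and 102, 84.3 and 105 CPM in polyps. It was higher in the polyp of mouse 1119 and lower in the other two polyps than in the tissue beside them (log2 fold change -0.025 ± 0.16, 95% interval -0.39 to 0.34, adjusted p = 0.964). Dnajc3, the BiP cochaperone that also inhibits PERK, measured 32.7, 43.5 and 39.0 CPM beside 57.2, 44.2 and 42.1 CPM in polyps. It was higher in the polyp in 3 of 3 mice, by a wide margin only in mouse 1119, and the groups overlapped (log2 fold change 0.31 ± 0.20, 95% interval -0.13 to 0.76, adjusted p = 0.545). Dnajb11, a cochaperone that hands unfolded protein to BiP, was at 28.1, 28.0 and 24.3 CPM in surrounding tissue and 22.6, 11.02 and 23.7 CPM in polyps. All 3 polyp values lay below the 3 surrounding values, with the polyp of mouse 1192 far below the rest, and the test was not passed (log2 fold change -0.57 ± 0.27, 95% interval -1.19 to 0.048, adjusted p = 0.403).

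The other chaperones showed no shared direction. Hyou1, the nucleotide exchange factor of BiP, had a log2 fold change of 0.0066 ± 0.17, and Dnajb9, the cochaperone that restrains IRE1, -0.027 ± 0.21. Manf, a secreted stress-induced protein that binds BiP, was at 16.1, 14.9 and 23.7 CPM in surrounding tissue and 29.4, 10.6 and 18.1 CPM in polyps (0.0021 ± 0.30). It was higher in the polyp of mouse 1119 and lower in the other polyps, and its fitted difference was near 0. Sdf2l1 and Creld2, usually among the most strongly induced genes of the response, were low here. Sdf2l1 ranged from 1.42 to 6.99 CPM in surrounding tissue and from 2.06 to 5.26 CPM in polyps, and Creld2 from 1.70 to 6.99 and 4.69 to 6.04 CPM. The mice went in opposite directions: within mice 1119, 1192 and 1199 the log2 differences were -1.40, 1.74 and -1.17 for Sdf2l1 and 1.71, 1.11 and -0.55 for Creld2. The interval of Sdf2l1 (-1.87 to 1.22) held a 2-fold change in either direction, and that of Creld2 (-0.44 to 2.07) held a 2-fold rise but not a 2-fold fall.

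The lectin chaperones hold glycoproteins until they are folded, and 0 of 2 passed the test. Calr, which encodes calreticulin, was at 73.3, 105 and 119 CPM in surrounding tissue and 131, 96.9 and 105 CPM in polyps. As with Hspa5, the surrounding tissue of mouse 1119 was the lowest of the 6 libraries (log2 fold change 0.18 ± 0.21, 95% interval -0.29 to 0.65, adjusted p = 0.762). Canx, the membrane-bound calnexin, ranged from 160.4 to 190.4 CPM in surrounding tissue and from 177 to 238 CPM in polyps (0.16 ± 0.14). Of the 5 protein disulfide isomerases, which form and reshuffle disulfide bonds, 0 passed, and all 5 intervals lay within 2-fold. Log2 fold changes ran from -0.083 for Dnajc10, a disulfide reductase, to 0.31 for Pdia6. P4hb was at 0.13 ± 0.15, Pdia3 at 0.087 ± 0.18 and Pdia4 at 0.050 ± 0.23 on the log2 scale.

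Of the degradation members, 9 of 10 were tested and 0 passed. Edem3, a mannosidase that marks misfolded glycoproteins for removal, had the smallest p of all members. It was at 72.0, 79.1 and 76.2 CPM in surrounding tissue and 95.7, 88.7 and 103 CPM in polyps. The 3 polyps lay above the 3 surrounding samples and each was higher than its own pair, and the difference missed the threshold over all genes (log2 fold change 0.33 ± 0.14, 95% interval 0.0077 to 0.66, adjusted p = 0.331). Its relatives Edem1 and Edem2 had log2 fold changes of 0.25 ± 0.17 and 0.14 ± 0.29, with overlapping groups. Os9, a lectin that delivers misfolded glycoproteins to the ubiquitin ligase, was at 47.7, 43.6 and 46.7 CPM in surrounding tissue and 49.8, 29.1 and 34.4 CPM in polyps. The polyps of mice 1192 and 1199 were lower than their surroundings and that of mouse 1119 was not (log2 fold change -0.32 ± 0.18, 95% interval -0.73 to 0.10, adjusted p = 0.501).

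Sel1l and Syvn1 form the core of that ligase, and their log2 fold changes were 0.061 ± 0.16 and -0.32 ± 0.36. Syvn1 was lower only in the polyp of mouse 1119, at 5.92 CPM against 14.8 CPM beside it. Herpud1, a ligase cofactor strongly induced by ER stress, was at 12.9, 13.0 and 15.8 CPM in surrounding tissue and 9.67, 13.9 and 18.8 CPM in polyps. Its groups overlapped and its difference was close to 0 (-0.022 ± 0.26). Derl1 and Selenos, membrane parts of the exit channel, were at -0.046 ± 0.21 and -0.025 ± 0.24. Derl3, a derlin of secretory cells, had 1 count in surrounding tissue and 3 counts in the polyp of mouse 1199 and 0 in the other 4 libraries, so no fold is given.

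None of the 4 sensor genes passed the test. Atf6 was at 34.0, 32.4 and 46.4 CPM in surrounding tissue and 50.5, 49.5 and 43.1 CPM in polyps. Polyps of mice 1119 and 1192 were the higher of their pairs and that of mouse 1199 was not (log2 fold change 0.37 ± 0.19, 95% interval -0.070 to 0.80, adjusted p = 0.453). Eif2ak3, which encodes PERK, was at 17.4, 24.9 and 21.2 CPM and 23.3, 27.2 and 30.1 CPM. It was higher in the polyp in 3 of 3 mice with overlapping groups (log2 fold change 0.35 ± 0.20, 95% interval -0.10 to 0.79, adjusted p = 0.491). Ern1, the IRE1-alpha of most cells, was at 19.9, 27.9 and 21.2 CPM in surrounding tissue and 28.3, 15.6 and 26.7 CPM in polyps. Its polyp value was below its pair in mouse 1192 and above it in the others (log2 fold change -0.0036 ± 0.28, 95% interval -0.64 to 0.63, adjusted p = 0.997). Ern2, the IRE1-beta of mucous cells, was at 10.3, 8.54 and 4.28 CPM and 7.13, 7.81 and 6.68 CPM (log2 fold change -0.043 ± 0.36, 95% interval -0.86 to 0.77, adjusted p = 0.971). The 3 polyps lay inside the range of the surrounding samples. Per kilobase of exon, Ern1 and Ern2 had 2.81 ± 0.527 and 2.60 ± 1.05 CPM in surrounding tissue and 2.88 ± 0.845 and 2.43 ± 0.192 in polyps, so their order is within the spread.

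The transcription factors did not pass the test either, and they did not move together. Xbp1, the factor that IRE1 activates, was at 29.6, 18.1 and 14.7 CPM in surrounding tissue and 30.1, 20.2 and 32.1 CPM in polyps. The value was higher in the polyp in 3 of 3 mice, by 1.12 on the log2 scale in mouse 1199 and by 0.026 and 0.16 in mice 1119 and 1192 (log2 fold change 0.41 ± 0.25, 95% interval -0.16 to 0.98, adjusted p = 0.530). Atf4, the effector of PERK, was at 18.9, 21.1 and 25.0 CPM in surrounding tissue and 20.3, 9.29 and 23.0 CPM in polyps. The polyp of mouse 1192 was the lowest library and the other pairs lay close together (log2 fold change -0.40 ± 0.28, 95% interval -1.04 to 0.25, adjusted p = 0.599). Ddit3, which encodes the death-linked factor CHOP, was at 3.41, 2.71 and 2.03 CPM in surrounding tissue and 0.363, 0 and 2.84 CPM in polyps. These are 36, 38 and 9 counts in surrounding tissue and 3, 0 and 20 in polyps. Polyps of mice 1119 and 1192 were lower than their pairs and that of mouse 1199 was not, and the interval was the widest of the set (log2 fold change -2.56 ± 1.21, 95% interval -5.33 to 0.20, adjusted p = 0.488). The fitted value of Ddit3 was -2.13 without mouse 1119, -1.20 without mouse 1192, whose polyp had 0 counts, -4.57 without mouse 1199 and -1.41 without the pairing. It was -2.88 with DESeq2 (unadjusted p = 0.0149, adjusted p = 0.177) and -1.88 with limma-voom (unadjusted p = 0.207). Without the filter on low counts it was -2.61 in edgeR (unadjusted p = 0.0343, adjusted p = 0.434). Ddit3 passed in none of these fits. Trib3, a pseudokinase that CHOP induces, had 0 counts in 3 libraries and 1 to 3 counts in the others.

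All 4 translocon members had positive log2 fold changes, and 0 of them passed the test. Ssr1, a subunit of the translocon-associated protein complex, was at 32.8, 34.4 and 34.5 CPM in surrounding tissue and 45.7, 43.3 and 38.4 CPM in polyps, with no overlap (log2 fold change 0.33 ± 0.17, 95% interval -0.053 to 0.71, adjusted p = 0.437). Ssr3, another subunit of it, was at 111, 89.7 and 150.1 CPM and 139, 126 and 146 CPM, with overlap through mouse 1199 (log2 fold change 0.26 ± 0.15, 95% interval -0.085 to 0.60, adjusted p = 0.504). Sec61a1, which forms the channel, was at 61.8, 61.6 and 48.0 CPM in surrounding tissue and 67.1, 67.7 and 63.0 CPM in polyps. Its groups did not overlap and its difference was small (log2 fold change 0.21 ± 0.15, 95% interval -0.13 to 0.55, adjusted p = 0.594). Sec61b, a small subunit of the channel, had 0.33 ± 0.28.

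Across the 36 members tested, 3 (Edem3, Sec61a1 and Ssr1) had all polyps above all surrounding samples, beside 9.84% of all genes tested. That is 8.33% of the members. 1 member, Dnajb11, had all polyps below, beside 8.58% of all genes. Members higher in the polyp in all 3 mice numbered 6 (Dnajc3, Edem3, Eif2ak3, Xbp1, Sec61a1 and Ssr1), or 16.7%, beside 19.6% of all genes. Members lower in all 3 numbered 2 (Dnajb11 and Derl1), or 5.56%, beside 18.6%. The shares of members higher in the polyp are near the background.

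The pairs did not move alike. In mouse 1119, 26 of 36 members were higher in the polyp, with a median log2 difference of 0.28, and in mouse 1192 22 were, with a median of 0.13. In mouse 1199 14 were higher and 22 lower, with a median of -0.054. Over all genes tested the medians were 0.014, -0.023 and 0.022. Chaperones of the lumen had medians of 0.33, 0.022 and -0.12, and disulfide isomerases 0.38, 0.24 and -0.19. Hspa5, Hsp90b1, Calr, Canx, Pdia3 and Pdia4 were each lowest in the surrounding tissue of mouse 1119 among the surrounding samples. Not all members shared this: P4hb was lowest in mouse 1192, and Dnajb11, Xbp1, Ern2 and Sec61a1 were lowest in mouse 1199. Summed over the 38 members, levels were 1514, 1669 and 1832 CPM in surrounding tissue and 1872, 1839 and 1788 CPM in polyps. The surrounding sample of mouse 1119 is the lowest of the 6, and the remaining ones span 1669 to 1872 CPM. Without mouse 1192 or without mouse 1199, which hold the libraries that stood apart, 0 and 0 members passed, and their median log2 fold changes were 0.036 and 0.18. Without mouse 1119, 0 members passed and the median was 0.10. With 1 pair per mouse, differences between mice could not be tested.

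**Figure D3:**
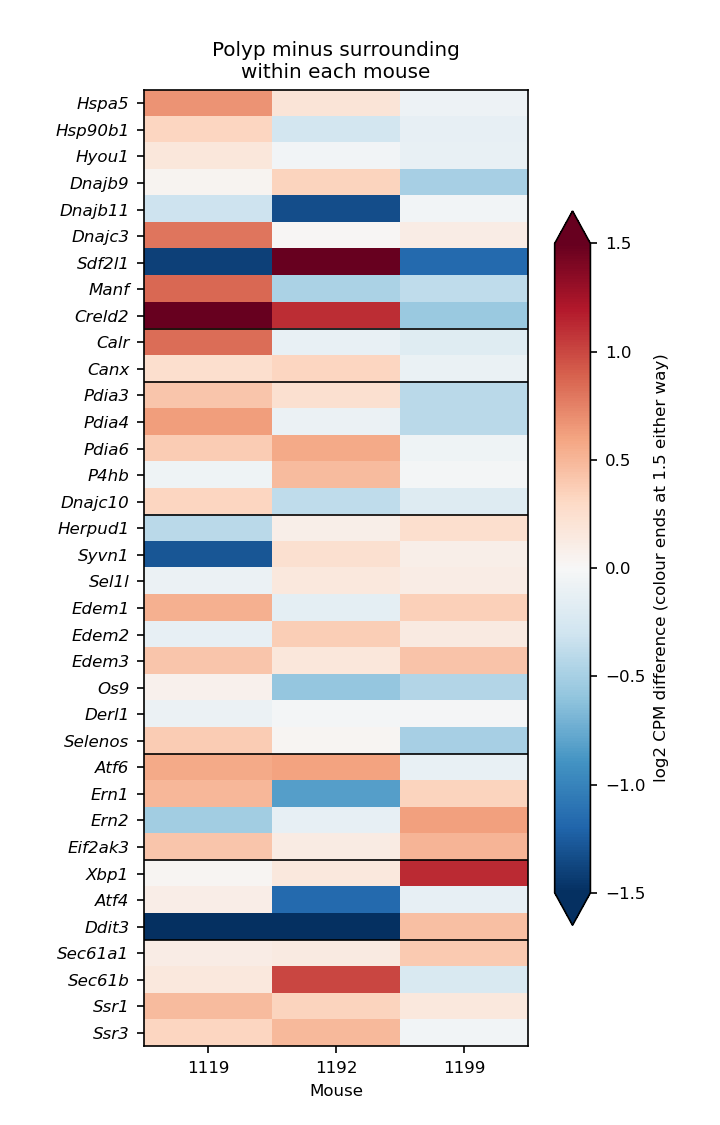
Log2 CPM difference of polyp minus surrounding tissue for each of the 36 members tested (rows, grouped by role) in each mouse (columns), with a prior count of 2, red for higher and blue for lower in the polyp. The chaperones and disulfide isomerases are mostly red in mouse 1119 and mostly pale blue in mouse 1199.

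Log2 fold changes of members with and without the element shown above overlapped. Among the 10 tested members with ERSE or ERSE-II letters, 6 lay above 0 on the log2 scale, with a median of 0.17 and a range from -0.57 (Dnajb11) to 0.82 (Creld2). Among the 20 tested members whose promoter entry lacked both, 12 were positive, with a median of 0.074 and a range from -2.56 (Ddit3) to 0.41 (Xbp1). Of all genes with ERSE letters in a promoter, 13 were tested and 0 passed. For ERSE-II, 8 were tested and 0 passed.

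Outside the 38, a list of 120 other genes of ER folding, degradation, translocation, export and stress signalling was read from the same test. Of these, 112 were tested, 2 rose and 0 fell, 1.79% against 2.76% of all genes, and their median log2 fold change was 0.12. The gene with the smallest p was Ero1a (Ero1l in GENCODE M21), the oxidase that recharges protein disulfide isomerase. It was at 60.5, 30.4 and 55.7 CPM in surrounding tissue and 145, 90.6 and 111 CPM in polyps, so that every polyp lay above every surrounding sample. Ero1a rose 2.43-fold (log2 fold change 1.28 ± 0.16, 95% interval 0.91 to 1.64, adjusted p = 0.0113). This call held with any 1 mouse left out and was lost without the pairing (adjusted p = 0.0724). Its relative Ero1b was at 3.32, 4.34 and 4.51 CPM in surrounding tissue and 1.33, 0.576 and 0.853 CPM in polyps, also without overlap but in the other direction, and did not pass (log2 fold change -2.18 ± 0.71, 95% interval -3.79 to -0.57, adjusted p = 0.193). P4hb, the isomerase that Ero1a reoxidizes, had an interval from -0.22 to 0.48.

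The other gene that rose was Slc7a11, the cystine importer and an ATF4 target, at 47.1, 17.7 and 30.9 CPM in surrounding tissue and 98.4, 69.9 and 50.5 CPM in polyps. All polyps lay above all surrounding samples (2.39-fold, log2 fold change 1.26 ± 0.24, 95% interval 0.72 to 1.79, adjusted p = 0.0328). It did not pass without mouse 1119, 1192 or 1199 (adjusted p = 0.101, 0.0558 and 0.0718) or without the pairing (0.2001). Atf3, an early stress factor, missed the threshold at 1.00 ± 0.22 (adjusted p = 0.0559), and passed with DESeq2 (0.0231) and limma-voom (0.0304). In the whole list of PERK and ATF4 targets, 18 of 23 genes were tested, 1 rose, 0 fell and 13 had a positive value, with a median of 0.35. Asns, the asparagine synthetase, was at 0.56 ± 0.38 and Ppp1r15a, the phosphatase subunit that ends the PERK signal, at 1.17 ± 0.38 (adjusted p = 0.571 and 0.182). Chac1, another target, had counts in 1 library only. Slc7a11 and Atf3 are also targets of other pathways, and which factor acted was not measured.

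In the remaining lists 0 genes passed the test. Glycan trimming and oligosaccharyltransferase genes had 12 tested and a median of 0.11, with Man1b1 (0.40 ± 0.17) and Prkcsh (0.49 ± 0.26) having the smallest p. Other degradation genes had 14 tested and a median of -0.021. There Erlin1, a lipid raft protein of the ER, was at 61.7, 58.6 and 53.0 CPM in surrounding tissue and 41.6, 44.7 and 32.7 CPM in polyps, all polyps lower, without passing (log2 fold change -0.55 ± 0.16, 95% interval -0.91 to -0.19, adjusted p = 0.132). Ube2j1, a ubiquitin-conjugating enzyme of the ER, was at 0.48 ± 0.17 (adjusted p = 0.230). Translocation and signal peptidase genes had 16 tested and a median of 0.035, with Tram1 (0.30 ± 0.15) and Srp68 (0.54 ± 0.28) first by p. Sensors and regulators had 15 tested and a median of 0.088, with Eif2s1, the eIF2-alpha that PERK phosphorylates, at 0.48 ± 0.21 and Creb3l2 at 0.94 ± 0.44.

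**Figure D4:**
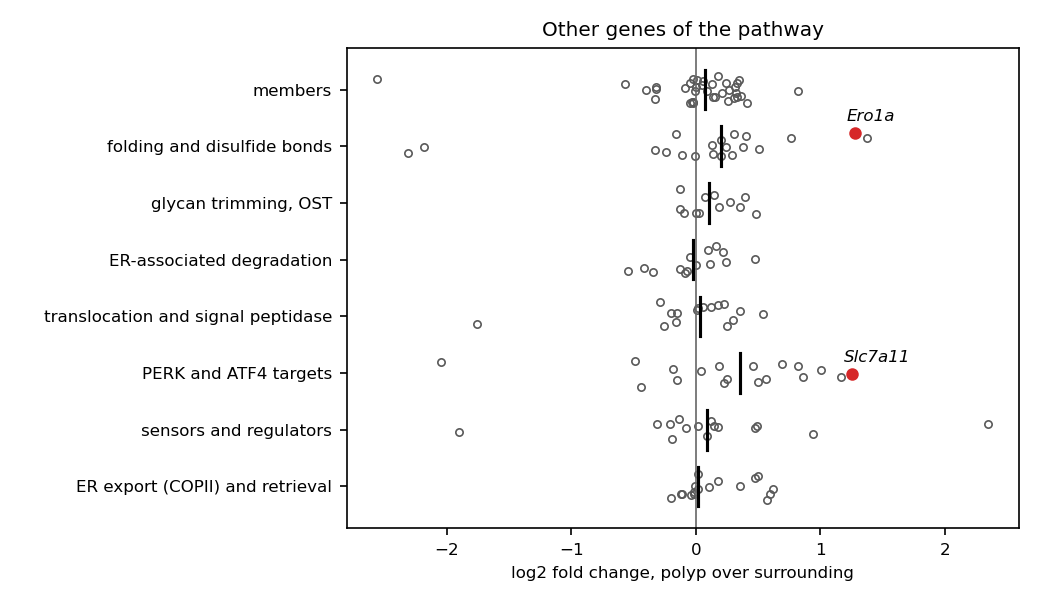
Log2 fold change of polyp over surrounding tissue (x axis) for the 36 members and the 112 other pathway genes tested, 1 row per list, with open circles for genes that did not pass, red points for those that did and black bars for list medians; circles are spread vertically only to separate them, and OST is oligosaccharyltransferase. Ero1a and Slc7a11 are the points that passed, and the members cluster around 0 apart from Ddit3 and Creld2.

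The samples were whole tissue, in which fewer cells of a type and less RNA per cell cannot be told apart. Goblet cell markers summed to 3017 to 3775 CPM in surrounding tissue and 1569 to 2951 CPM in polyps, and 3 of 12 fell (Clca1, Zg16 and Fcgbp) while 0 rose. Muc2, the main mucin, was at 964, 1228 and 998 CPM in surrounding tissue and 728, 1132 and 824 CPM in polyps and did not pass (adjusted p = 0.456). Agr2, a disulfide isomerase relative that goblet cells need for mucin, was at -0.0046 ± 0.27 (adjusted p = 0.996). Plasma cell markers summed to 134 to 190.2 and 198 to 203 CPM with 0 of 7 tested called, and Tnfrsf17 and Fcrl5 were at 0 in all libraries. Most of that sum was Sdc1, Txndc5 and Prdm1, which other cells also express, and Jchain was at 12.03, 13.96 and 10.4 CPM and 7.13, 15.1 and 8.39 CPM. Fibroblast markers summed to 97.5 to 206 CPM in surrounding tissue and 324 to 739 CPM in polyps, with 6 of 12 higher. Smooth muscle markers summed to 288 to 307 and 71.6 to 152 CPM, with 2 of 11 lower. Absorptive colonocyte markers summed to 12813 to 17709 and 8435 to 12761 CPM, with 4 of 12 lower. General epithelial markers had 3 of 12 higher, and macrophage and Paneth or enteroendocrine markers had 0 of 9 and 0 of 5 changed. Over all genes tested, 1.72% were higher and 1.04% lower in polyps. The marker lists were chosen with earlier results of these data known, so these counts are a description and no independent evidence of a shift in cell types. The part of these shifts in the members' values was not tested.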

How the data were processed

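Per the file headers, the deposited values are raw counts per Ensembl gene, 1 table per sample and 37991 genes, and the authors applied no normalization to them. The tools listed by the submitters' processing notes are HTSeq 0.5.3p9, TopHat2 2.0.7 and Bowtie 0.12.9. Build, annotation and strand setting were not given in the sources used here. Per the labels' protocols, RNA went through the MICROBEnrich kit, which removes mammalian RNA, and a bacterial rRNA removal kit before library preparation, so mouse counts may come from what was left after that. Symbols came from GENCODE M21, which named 32919 identifiers. Exons of 10 members overlap another gene in that annotation (Ddit3, Dnajb9, Eif2ak3, Hsp90b1, Manf, Pdia3, Pdia4, Pdia6, Sec61a1 and Syvn1), and reads there may not have been told apart.

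Genes were tested with edgeR 4.0.16 (limma 3.58.1, R 4.3.3): TMM normalization, filterByExpr with a minimum count of 10, 10960 genes kept, robust quasi-likelihood fit, and the mouse as a block because the series is described as paired and titles give the animal. Residual degrees of freedom were 2 per gene, with 6.63 prior. Standard errors and 95% intervals are Wald values from this fit, from its moderated spread. Deviations from the tissue means were only weakly correlated between samples of the same mouse (0.0719, 0.127 and 0.159), and different mice gave -0.120 to -0.00294. No 2 samples of a group looked like 1 library deposited again (chi-square of their counts, divided by its degrees of freedom, 22.2 to 79.5). Differences within a mouse are of log2 CPM with a prior count of 2. The procedure was also run on simulated counts with known fold changes, drawn with the same spread for all genes. That run does not show how often a 2-fold change would be found in the real libraries. Members and lists were chosen with earlier results of these data known. Per-sample values are given for the 10 members with the smallest p and for Hspa5, Hsp90b1, Xbp1, Atf4, Ddit3, Atf6, Ern1, Ern2 and Eif2ak3, and of the other lists the genes that changed and up to 2 with the smallest p are named. Manf, Calr, Herpud1, Sec61a1, Asns, Ppp1r15a, Agr2, Muc2 and Jchain were added after their values were seen. Alternatives were no block, RLE and upper-quartile scaling, other filters, no robust spread, leaving out genes above 1% of a library or each mouse, DESeq2 1.42.0 and limma-voom. Tables were made with Python 3.11.15.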

Additional observations from a re-analysis of the deposited data

How the results depend on the processing

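The count of members called stayed at 0 under all 12 alternatives, with 0 to 3 members at an unadjusted p under 0.05. Their median log2 fold change ran from 0.036 to 0.18 and kept its sign. Over all genes, 87 changed without the pairing (no replicate block), 753 without a filter on low counts, 541 with DESeq2, 487 with limma-voom, and 83 to 281 with a mouse left out, against 303. The fit without the pairing changed no call of a member. Of the other pathway genes, 0 changed without the pairing, 4 without the filter, and 1 to 2 with a mouse left out. For the members, 394 of 429 alternative values kept their direction. Those with the other sign, none called, were all small when all 3 mice were kept: Hyou1 -0.030 (upper quartile), -0.0045 (without genes above 1%) and -0.0069 (mean of 5 CPM), Manf -0.0036 (RLE), -0.035, -0.0088, -0.011 and -0.0076 (DESeq2), Dnajb9 0.0035, Herpud1 0.026 and Ern1 0.025 without the pairing, and Dnajb9 0.061 and Selenos 0.0015 with limma-voom. With a mouse left out, the sign turned for the following members, whose ranges were Hsp90b1 -0.21 to 0.065, Hyou1 -0.082 to 0.046, Dnajb9 -0.26 to 0.18, Sdf2l1 -1.39 to 0.34, Manf -0.44 to 0.23, Calr -0.15 to 0.34, Pdia3 -0.086 to 0.31, Pdia4 -0.25 to 0.25, P4hb -0.087 to 0.22, Dnajc10 -0.29 to 0.033, Herpud1 -0.17 to 0.16, Syvn1 -0.67 to 0.16, Sel1l -0.029 to 0.13, Edem2 -0.033 to 0.26, Selenos -0.23 to 0.19, Ern1 -0.28 to 0.39, Ern2 -0.34 to 0.22 and Sec61b -0.067 to 0.57. The cause of these turns was not tested. Derl3 and Trib3 had too few counts for the filters and were tested only in the fit without a filter, where 0 of 38 members passed.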

Other observations

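Cargo leaves the ER in COPII-coated vesicles, and escaped chaperones are returned by KDEL receptors. Of 19 genes of this export and retrieval list, 17 were tested and 0 passed, while 5 had an unadjusted p under 0.05 beside 14.6% of all genes. In all 3 mice 9 of the 17 were higher in the polyp and 0 were lower, beside 19.6% and 18.6% of all genes tested. The list is among 7 lists of other pathway genes. Its genes were read in the same 6 libraries, and the count was not tested. Sec23b, an inner coat subunit, was at 25.8, 21.4 and 29.1 CPM in surrounding tissue and 33.7, 41.0 and 37.7 CPM in polyps, in the order of mice 1119, 1192 and 1199 (log2 fold change 0.57 ± 0.19, adjusted p = 0.204). All 3 polyps were above the surrounding samples. Surf4, a cargo receptor, was at 39.3, 50.6 and 52.3 CPM and 69.0, 74.4 and 56.2 CPM (log2 fold change 0.50 ± 0.18, adjusted p = 0.228), also with no overlap. The median of the list was 0.019.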
